A study of Mus musculus with 16 samples.

Results

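The interferon-stimulated genes described here are 38 genes, of 47729 gene rows in the count tables, that cells raise when interferon signals to them. They were chosen by symbol from a list of well-known members, with earlier results of these data known. Their level was examined in 4 cell types of the mouse liver, namely endothelial cells (ECs), hepatic stellate cells (HSCs), Kupffer cells and hepatocytes, and the label KO was set against the label WT within each of them. The KO label stands for 8-week-old male mice that carried floxed Zeb2 (exon 7) and the tamoxifen-inducible Cdh5-CreERT2 transgene, which is driven by an endothelial promoter, on a background with a CAG-driven eGFP reporter in the R26R locus. The WT label stands for Cre-negative littermates. Both labels received 2 mg of tamoxifen per day on 5 consecutive days, and RNA was taken 2 weeks later from livers that had not been challenged. There were 16 RNA sequencing libraries, with 2 libraries for each cell type and label, and a library is named here by its label and the number in its title. ECs, HSCs and Kupffer cells were sorted by flow cytometry (Meca32, vitamin A autofluorescence and F4/80, respectively), and hepatocytes were collected by centrifugation. The 4 cell types were isolated from the livers at the same time, and libraries of several cell types may therefore share a mouse.

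Interferons are cytokines that warn cells of viral or bacterial nucleic acid. Type I interferons (Ifna genes, Ifnb1) bind the receptor made of Ifnar1 and Ifnar2, the kinases Jak1 and Tyk2 then pass the signal on, and a complex that holds Stat2 and Irf9 binds an interferon-stimulated response element (ISRE) in the promoters of target genes. Interferon gamma (Ifng) acts through Ifngr1 and Ifngr2 and a promoter element named the gamma-activated site (GAS), and drives the guanylate-binding proteins and immunity-related GTPases in particular. In the liver, Kupffer cells and sinusoidal ECs meet microbial products that arrive from the gut with the portal blood, and many of these genes have a low tonic level in unchallenged tissue.

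Many promoters of the members hold the core letters of the element by which the set is known, and 8 are printed here. They were taken only from windows with an ISRE core before the gene start. These genes were among the most abundant members or carry differences between cell types or libraries described below. RefSeq promoter windows on GRCm38.p6, reaching from 250 bases before to 50 bases after the start of a gene, were at hand for 29 of the 38 members. They were searched on both strands for the ISRE core GAAANNGAAA and the GAS core TTCNNNGAA. An ISRE core stood in 18 of the 29 members (62.1%), against 3.99% of 27025 genes, and a GAS core in 7 of the 29 (24.1%), against 9.55% of all genes. No ISRE core stood in the windows of Cmpk2, Dtx3l, Herc6, Ifi35, Ifi44, Ifit2, Irf7, Irf9, Oasl1, Oasl2 and Xaf1, and none of these is printed. The sequences run 5′ to 3′ on the strand of the gene, capitals mark the cores (a core on the other strand reads as its reverse complement), and cores may overlap each other. A match is a description of the letters and not a bound site. The stretches lie at chr19:34640784-34640813 (+) for Ifit1, chr19:34583397-34583426 (+) for Ifit3, chr19:34607793-34607822 (+) for Ifit3b, chr5:120907526-120907552 (−) for Oas1a, chr4:156200871-156200900 (−) for Isg15, chr8:71537583-71537612 (−) for Bst2, chr3:142620594-142620623 (+) for Gbp2 and chr3:142559992-142560021 (+) for Gbp3.
Ifit1: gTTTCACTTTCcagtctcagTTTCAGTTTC
Ifit3: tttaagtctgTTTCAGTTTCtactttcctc
Ifit3b: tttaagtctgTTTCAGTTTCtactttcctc
Oas1a: ttctcggGAAATGGAAACTGAAAatct
Isg15: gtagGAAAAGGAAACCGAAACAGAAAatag
Bst2: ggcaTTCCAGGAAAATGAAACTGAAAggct
Gbp2: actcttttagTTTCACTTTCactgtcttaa
Gbp3: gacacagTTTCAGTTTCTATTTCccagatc
The stretches of Ifit3 and Ifit3b were letter for letter the same, and reads that fit both genes could not be assigned with certainty, so that the values of this pair are uncertain. The Bst2 stretch holds a GAS core that overlaps the first of its 2 ISRE cores, and the Isg15 stretch holds 3 overlapping ISRE cores. Mx1, Mx2, Oas2, Parp9, Parp14, Rtp4, Usp18, Zbp1 and Dhx58 had no window.

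The 16 libraries held 12872706 to 15690506 reads on genes (median 14806833), and 3 counts, the floor used here, equal 0.191 to 0.233 CPM, which is a count scaled to a library total of 1000000 gene reads. The cells carried their own markers: the summed CPM of 10 markers of ECs, HSCs or Kupffer cells reached at most 6.51% of its own cell type's mean in any other cell type, whereas 10 hepatocyte markers reached 0.601 to 23.3% of their hepatocyte level in the sorted cells. None of the 10 markers was at 0 in a library of its own cell type. The sums hide single markers. Cdh5, the gene named in the Cre transgene, read 147, 172, 149 and 160 CPM in Kupffer cells. In ECs it read 234, 171, 177 and 165 CPM, in both cases WT before KO. Zeb2, the targeted gene, was not lower in the ECs labelled KO. It read 106 and 106 CPM in the libraries labelled WT and 199 and 130 CPM in those labelled KO (log2 fold change 0.62 ± 0.24 SE, adjusted p = 0.303). Reads outside the deleted exon could not be told from the rest, and groups are therefore called by their labels throughout.

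Every member had some counts in each of the 4 cell types, and the summed level was lowest in hepatocytes. Some counts were few, as for Oas3 with 13, 5, 0 and 0 in hepatocytes and 43, 0, 0 and 9 in HSCs. So few counts do not show that the named cells express a gene. Summed over the 38 members, the level was 2885 ± 778 CPM in ECs (SD, n = 4), 2940 ± 1096 CPM in HSCs, 2494 ± 161 CPM in Kupffer cells and 656 ± 63.4 CPM in hepatocytes. The 4 hepatocyte libraries, from 584 to 737 CPM, lay below the lowest library of any other cell type (2050 CPM), while the ranges of the other 3 cell types overlapped. By mean CPM, 15 members were highest in HSCs, 13 in Kupffer cells, 10 in ECs and none in hepatocytes, and 32 were lowest in hepatocytes. The size of the gap to hepatocytes depends on the scaling. Trimmed mean of M-values (TMM) factors were 0.497 to 0.588 in hepatocytes and 1.01 to 1.47 elsewhere, and with them the summed level was 1213 CPM in hepatocytes and 2081 CPM in ECs. On the TMM scale 26 members were still lowest in hepatocytes and 4 were highest there.

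**Figure D1:**
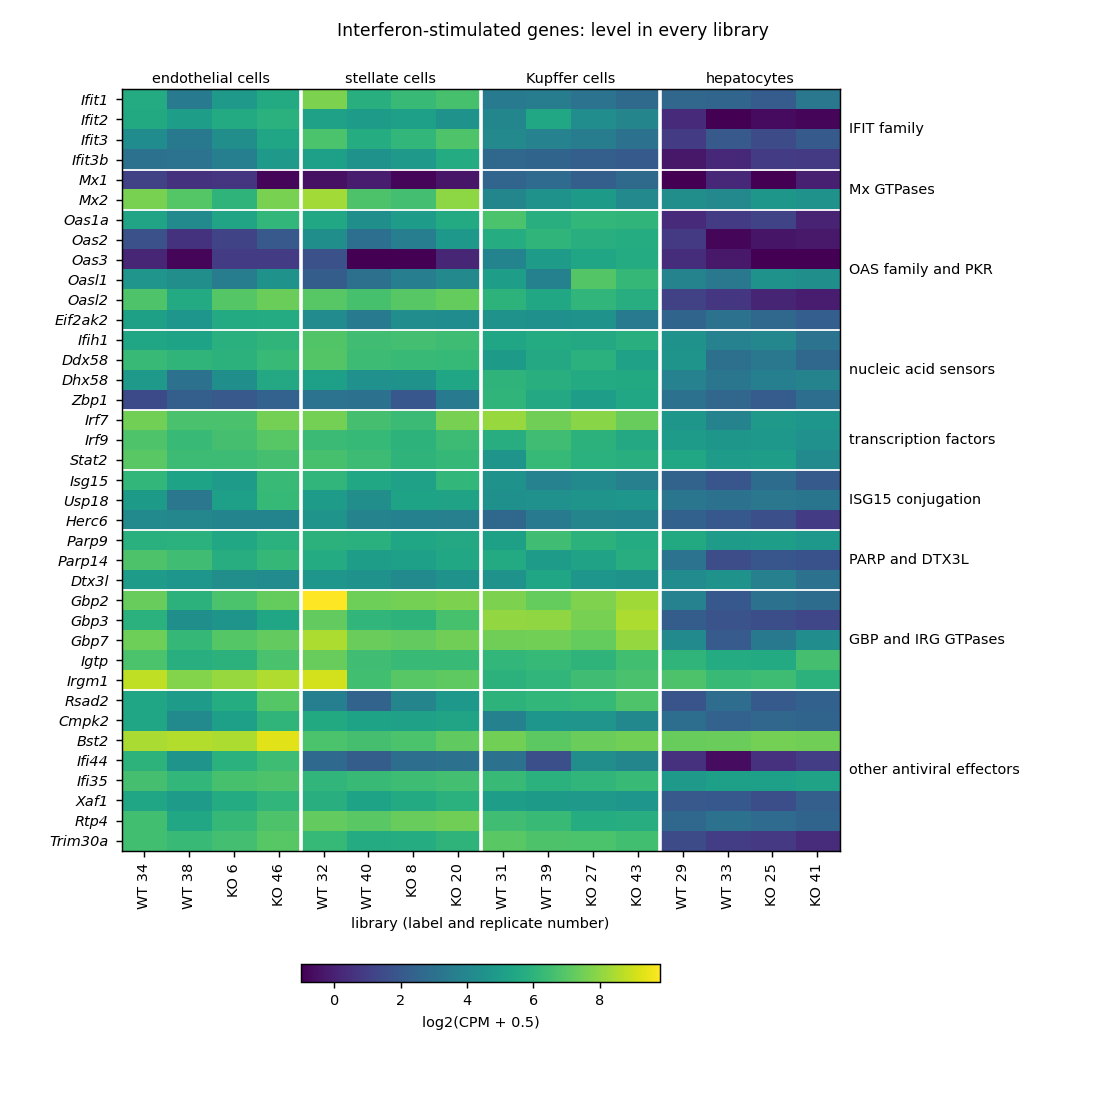
Level of each of the 38 members (rows, grouped by role) in each of the 16 libraries (columns, by cell type, label and replicate number), as log2(CPM + 0.5) by colour. The hepatocyte columns are the darkest for most rows, and Bst2, Irgm1, Mx1, Mx2, Oasl1 and Zbp1 are the rows whose mean CPM is lowest in another cell type.

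Per kilobase of exon, which allows genes to be compared, Bst2 was the most abundant member in ECs (483 ± 160 CPM per kb, SD, n = 4), Kupffer cells (183 ± 23.7) and hepatocytes (191 ± 15.6), and came next after Gbp2 among HSCs (126 ± 22.5). Bst2 encodes tetherin, which holds budding virus at the cell surface. In ECs it was followed by Isg15 (72.4 CPM per kb), Irgm1 (57.2), Ifi35 (55.5) and Gbp2 (48.2). Of the members, in the HSC libraries, Gbp2 stood at 147 ± 143 CPM per kb, Isg15 at 74.0, Rtp4 at 72.6 and Mx2 at 53.9. The large SD of Gbp2 there comes from 1 library, described below. Kupffer cells had Gbp2 (87.9 CPM per kb), Gbp3 (82.9), Irf7 (57.2) and Ifi35 (41.4) after Bst2. In hepatocytes the next were Igtp (33.0), Ifi35 (19.5), Irgm1 (14.6) and Parp9 (7.01 CPM per kb). No member stood under 3 counts in all 4 libraries of a cell type, but Mx1 had 1 to 6 counts in HSCs and 0 to 10 counts in hepatocytes.

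**Figure D2:**
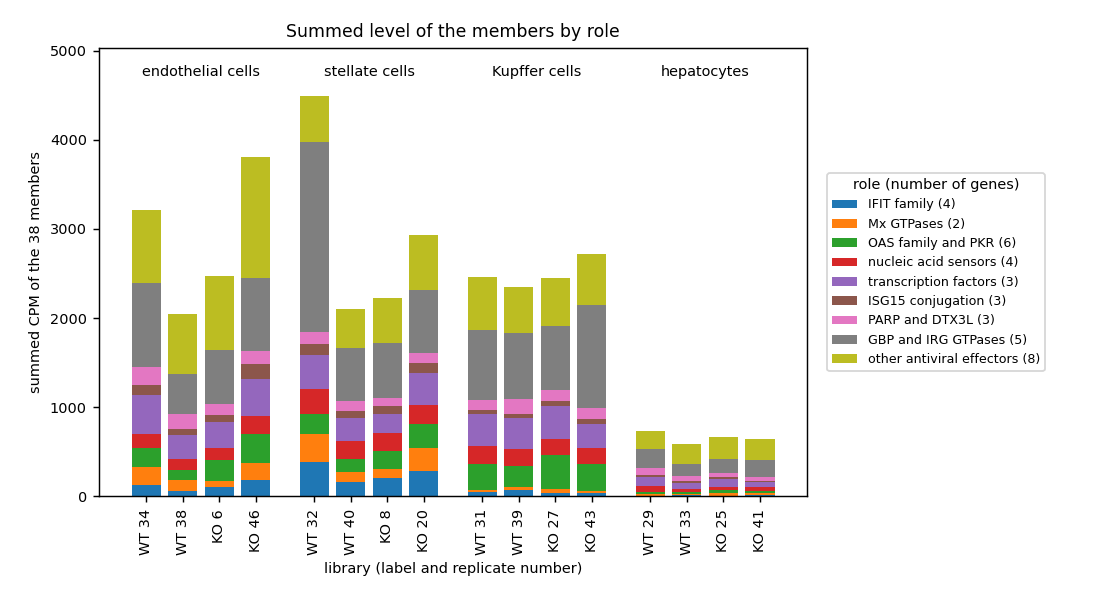
Summed CPM of the 38 members in each library, stacked by the role of the genes, with the number of genes of each role in the key. Bars run from 584 to 737 CPM in hepatocytes and up to 4491 CPM in the HSC library WT 32, where the GBP and IRG GTPases account for 2128 CPM.

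The 6 pairs of cell types were tested over all 16 libraries, averaged over both labels. Against hepatocytes, 22 of 38 members were higher in ECs, where 33.2% of the 17214 genes tested were, and 5 were lower, where 25.5% of all genes were. HSCs had 22 members higher than hepatocytes (34.0% of all genes) and 2 lower (24.4%), and Kupffer cells had 22 higher (29.3%) and 3 lower (26.3%). The median log2 difference of the members was 1.39 for ECs against hepatocytes, 1.76 for HSCs and 1.09 for Kupffer cells, beside medians over all genes of 0.54, 0.60 and 0.24. Scaling by library totals moved the medians over all genes to 1.85, 1.67 and 1.23, and the members then stood above them by 0.89, 1.19 and 0.91, in place of 0.85, 1.15 and 0.84 with TMM. With library totals the members called higher against lower were 33 and 0 for ECs (58.9 and 12.4% of all genes), 30 and 1 for HSCs (56.3 and 13.5%) and 32 and 0 for Kupffer cells (48.4 and 14.7%), and 6, 4 and 5 members changed direction.

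In 15 of 38 members the hepatocyte level was below that of each of the other 3 cell types, beside 17.2% of all genes, and in no member was it above all 3, beside 17.9% of all genes. With library totals 26 members were below all 3, beside 37.7% of all genes, and again none was above, beside 9.06%. In both scalings the share of members below all 3 exceeded that of all genes. The 15 with TMM were Ddx58, Gbp2, Gbp3, Gbp7, Herc6, Ifi44, Ifit2, Ifit3b, Irf7, Oas1a, Oasl2, Parp14, Rtp4, Trim30a and Xaf1. Oasl2, a member of the oligoadenylate synthetase family, read 1.72, 1.16, 0.580 and 0.404 CPM in hepatocytes and between 43.9 and 170 CPM in the other 12 libraries. The groups lie far apart, with log2 differences of 5.67 ± 0.37 for ECs, 6.12 ± 0.38 for HSCs and 5.04 ± 0.37 for Kupffer cells against hepatocytes (adjusted p at most 3.94e-07). Trim30a, a ubiquitin ligase family member of rodents, read 0.809 to 2.29 CPM in hepatocytes against 50.7 to 133 CPM elsewhere. Ifit2, which binds viral RNA, had 12, 0, 2 and 1 counts in the hepatocyte libraries and 220 to 868 counts in the others.

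The 6 members whose mean CPM was not lowest in hepatocytes were Bst2, Irgm1, Mx1, Mx2, Oasl1 and Zbp1. Of the other members, Igtp, Parp9, Dtx3l, Dhx58, Usp18, Oas2 and Oas3 overlapped in CPM between hepatocytes and ECs. Bst2 read 160, 162, 189 and 179 CPM in hepatocytes and 108, 97.5, 107 and 144 CPM in HSCs, and these ranges did not overlap. It was lower in HSCs than in hepatocytes on both scalings (log2 difference −1.72 ± 0.24, adjusted p = 6.79e-05, and −0.60 with library totals). Igtp, an immunity-related GTPase, read 67.9, 50.5, 49.1 and 99.5 CPM in hepatocytes and 56.7 to 107 CPM in ECs, and Parp9, a mono-ADP-ribosyltransferase family member that pairs with the ubiquitin ligase Dtx3l, read 27.0 to 47.5 CPM in hepatocytes and 44.2 to 59.3 CPM in ECs. With TMM, Igtp, Parp9, Dtx3l, Oasl1 and Zbp1 were called higher in hepatocytes than in ECs, and for the first 4 of these the direction turned with library totals. Dtx3l and Parp9 share 458 exonic bases on opposite strands and Igtp shares 162 with Irgm2 on the same strand, so that reads there may have been split or dropped.

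**Figure D3:**
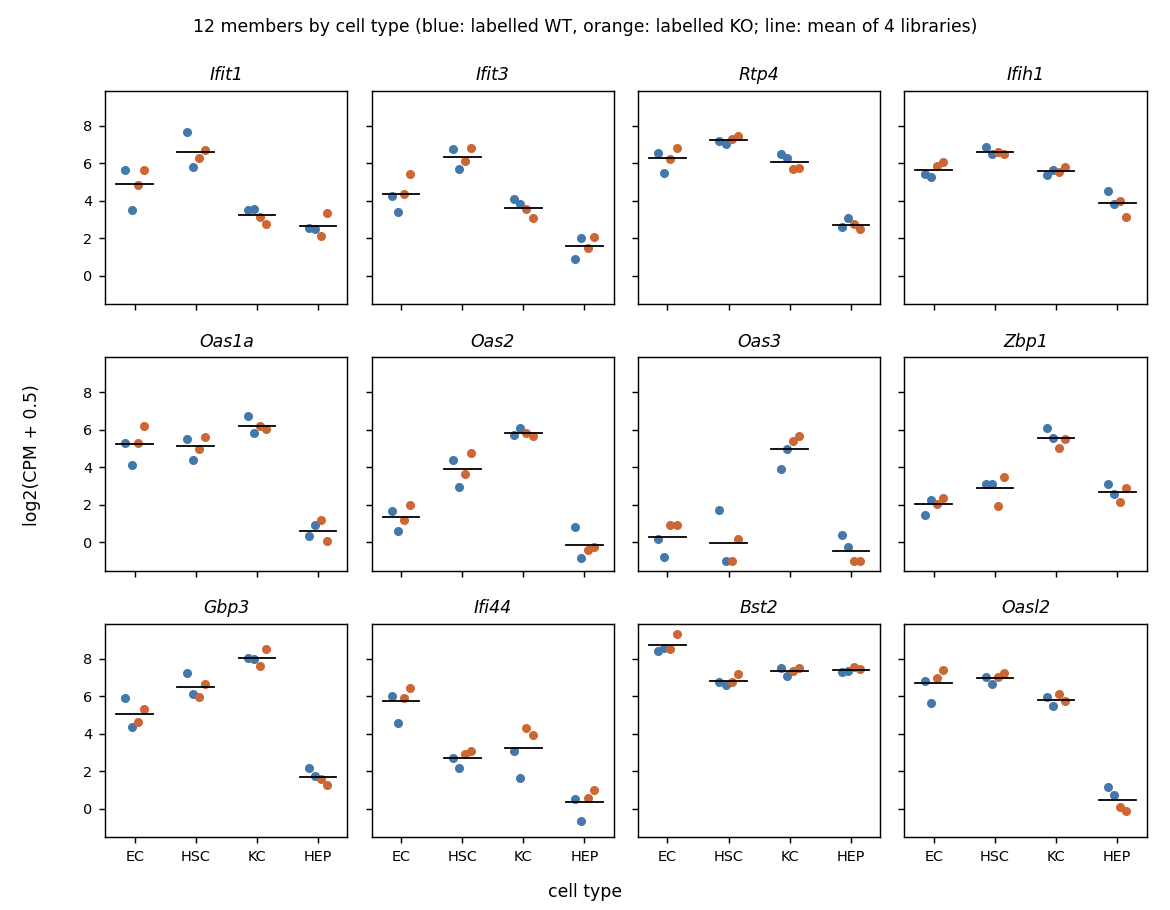
Level of 12 members in the 4 libraries of each cell type, as log2(CPM + 0.5), with libraries labelled WT in blue and KO in orange and a line at the mean of the 4 values. The upper row (Ifit1, Ifit3, Rtp4, Ifih1) is highest in HSCs, and Oas1a, Oas2, Oas3, Zbp1 and Gbp3 are highest in Kupffer cells.

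HSCs had the highest level of the IFIT genes other than Ifit2. These proteins bind foreign RNA and block its translation, and their genes form a cluster on chromosome 19 (Ifit1 at 34640871-34650009, GRCm38). Ifit1 read 207, 54.8, 77.8 and 103 CPM in HSCs, 50.5, 10.8, 28.4 and 48.9 in ECs, 10.9, 11.3, 8.24 and 6.29 in Kupffer cells and 3.93 to 9.70 in hepatocytes, in the order WT then KO. All HSC libraries lay above all others for this gene. The difference from HSCs was −1.89 ± 0.52 on the log2 scale in ECs (adjusted p = 0.0188), and HSCs exceeded Kupffer cells by 3.53 ± 0.56 (adjusted p = 0.00036). Ifit3 (86.2 ± 29.7 CPM in HSCs, 22.6 ± 13.7 in ECs, 12.3 ± 3.59 in Kupffer cells) was also highest in HSCs without overlap. Ifit3b was called highest there too, but its HSC library WT 40 (22.8 CPM) lay below the EC library KO 46 (28.1 CPM), and reads shared by this pair leave both genes uncertain. Ifih1 and Rtp4 completed the 5 members higher in HSCs than in each other cell type, beside 6.66% of all genes. Ifih1 encodes MDA5, a cytosolic sensor of long double-stranded RNA, and read 117, 90.1, 97.2 and 89.0 CPM in HSCs against 38.9 to 67.5 in ECs and 40.8 to 55.6 in Kupffer cells. Rtp4, a chaperone of receptor transport, read 133 to 178 CPM in HSCs and at most 111 CPM elsewhere. No member was lower in HSCs than in each of the other 3, beside 3.57% of all genes.

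Kupffer cells had the highest level of Oas1a, Oas2 and Oas3, 3 of the oligoadenylate synthetases. The mean of Oasl2 was highest in HSCs (128 CPM), but its difference from ECs (115 CPM) did not pass the threshold (edgeR adjusted p = 0.276). Oligoadenylate synthetases answer double-stranded RNA with a second messenger that activates RNase L. Oas1a (120896256-120907521), Oas2 and Oas3 lie close together on chromosome 5. Oas2 read 51.8, 67.3, 56.6 and 51.4 CPM in Kupffer cells, 20.2, 7.29, 12.0 and 26.8 in HSCs, 1.01 to 3.55 in ECs and 0.0682 to 1.27 in hepatocytes, without overlap between Kupffer cells and any other cell type. Oas2 had a log2 difference of −1.85 ± 0.54 for HSCs against Kupffer cells (adjusted p = 0.0163) and −4.95 ± 0.63 for ECs against Kupffer cells (adjusted p = 8.34e-05). Oas3 had 214, 477, 635 and 752 counts in Kupffer cells and 0 to 43 counts in the other 12 libraries. Oas1a read 107, 55.9, 72.3 and 66.7 CPM in Kupffer cells and 17.1 to 72.4 CPM in ECs, so that its groups overlapped, and its calls lay near the threshold (adjusted p = 0.0454 against ECs and 0.0491 against HSCs, both lost with library totals). Zbp1, a sensor of Z-form nucleic acid that can start necroptosis, read 67.9, 46.3, 32.0 and 44.7 CPM in Kupffer cells and 2.23 to 10.9 CPM in the other libraries. Gbp3, a guanylate-binding protein of the cluster on chromosome 3 (142560026-142573209), read 265, 258, 196 and 364 CPM in Kupffer cells, 63.0 to 151 in HSCs, 20.4 to 59.4 in ECs and 1.95 to 4.02 in hepatocytes. These 5 were the members higher in Kupffer cells than in each other cell type, beside 7.23% of all genes. With library totals there were also 5 (7.1% of all genes), with Oasl1 in place of Oas1a. Irgm1 was the only member called lower in Kupffer cells than in each other cell type, beside 3.54% of all genes. That call ended with library totals, with relative log expression (RLE) size factors and in 15 of the 16 fits that left out 1 library, all but the one without HSC WT 40.

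ECs stood apart in Ifi44, the only member higher in ECs than in each of the other 3 cell types, beside 4.81% of all genes. With library totals there were 4 (Bst2, Eif2ak2, Ifi44 and Parp14), beside 7.86% of all genes. With at least 10 counts asked for in every library there were 0, but Ifi44 was then not tested. It had 15, 2, 15 and 22 counts in hepatocytes. Ifi44 read 64.4, 23.8, 60.7 and 87.2 CPM in ECs, 4.09 to 8.09 in HSCs, 2.61 to 19.7 in Kupffer cells and 0.136 to 1.48 in hepatocytes. All 4 EC libraries lay above the 12 others, with log2 differences of 2.98 ± 0.52 from HSCs (adjusted p = 0.00121) and 2.25 ± 0.50 from Kupffer cells (adjusted p = 0.0048). Bst2 read 347, 381, 365 and 652 CPM in ECs, above every other library. It was higher in ECs than in HSCs by 1.68 ± 0.24 and than in Kupffer cells by 1.06 ± 0.24 on the log2 scale, while its difference from hepatocytes was −0.04 with TMM and 1.32 with library totals. Zbp1 was the only member called lower in ECs than in each other cell type, beside 1.66% of all genes, and this call ended with library totals, with the libraries of either label alone, and in 6 of the 16 fits that left out 1 library (EC WT 34, KO 6 or KO 46, or HSC WT 32, WT 40 or KO 20). In single pairs, 4 members were higher in ECs than in HSCs (13.3% of all genes) and 9 lower (12.8%), and 7 were higher in ECs than in Kupffer cells (17.5%) and 7 lower (14.5%). With library totals these counts were 7 and 7 against HSCs (18.6 and 10.2% of all genes) and 13 and 6 against Kupffer cells (25.3 and 10.8%). HSCs exceeded Kupffer cells in 12 members (22.3% of all genes) and were lower in 9 (20.6%), and these counts were the same with library totals (23.5 and 19.3% of all genes).

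Other members split the sorted cell types in further ways. Mx2, a dynamin-like GTPase gene that the annotation lists as a polymorphic pseudogene, read 201, 125, 65.6 and 199 CPM in ECs and 319, 110, 94.8 and 255 CPM in HSCs, against 15.4 to 29.8 in Kupffer cells and 16.8 to 26.2 in hepatocytes. ECs and HSCs were both above Kupffer cells for this gene (adjusted p = 0.00155 and 0.000287), and did not pass the threshold against each other (adjusted p = 0.329). Isg15, a ubiquitin-like modifier, read 31.4 to 77.9 CPM in ECs, 36.2 to 72.3 in HSCs, 12.8 to 23.0 in Kupffer cells and 3.20 to 6.70 in hepatocytes. Rsad2 (viperin), which makes a chain-terminating nucleotide, read 81.1 ± 22.2 CPM in Kupffer cells, 62.4 ± 42.5 in ECs and 14.5 ± 8.97 in HSCs, and was lower in HSCs than in either (adjusted p = 0.000369 and 0.00573). The transcription factors Irf7, Irf9 and Stat2 were each above 50 CPM on average in the 3 sorted cell types. Irf7, the factor that amplifies type I interferon, read 216 ± 55.8 CPM in Kupffer cells, 146 ± 47.9 in ECs and 142 ± 58.8 in HSCs, and no pair of these passed the threshold (adjusted p from 0.0992 to 0.75).

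In ECs and HSCs, most members moved in the same direction between the 2 libraries of 1 label, a larger share than over all genes. The values given are signed medians and shares of genes. Opposite shifts cancel in them, and the size of the differences was not compared. Of 38 members tested in ECs, 34 were higher in WT 34 than in WT 38, with a median log2 difference of 0.66, beside −0.06 over all genes. Between the EC libraries labelled KO, 35 of 38 were higher in KO 46 than in KO 6, where 38.9% of all genes were. Among HSCs, 34 of 36 were higher in WT 32 than in WT 40, where 46.6% of all genes were, and 30 of 36 were higher in KO 20 than in KO 8, where 42.5% were. Thus 1 library of each label was high and the other low in both cell types. Libraries of ECs and HSCs may come from the same mice, so that the splits in these cell types may not be independent of each other. Kupffer cells showed no such split, with 19 members higher in each WT library and 23 against 15 in the KO libraries. In hepatocytes 25 of 34 were higher in WT 29 than in WT 33, where 59.6% of all genes were, and 24 of 34 in KO 25 than in KO 41, where 60.6% were.

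**Figure D4:**
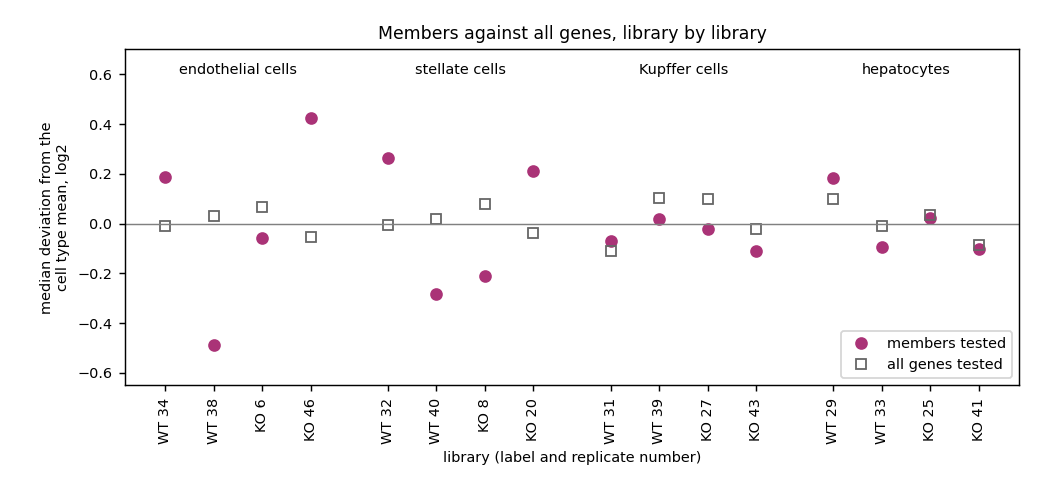
Median over genes of the log2(CPM + 0.5) deviation of each library from the mean of its 4 libraries, for the members tested (filled circles) and for all genes tested (open squares). The median of the members ranges from −0.49 in the EC library WT 38 to 0.42 in KO 46, while that of all genes stays between −0.11 and 0.10.

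The HSC library WT 32 had the highest summed level of all, 4491 CPM against 2106, 2230 and 2934 CPM in WT 40, KO 8 and KO 20. The guanylate-binding and immunity-related GTPases made up most of the gap, at 2128 CPM against 588, 609 and 705 CPM. Gbp2 read 909 CPM there and 171, 191 and 205 CPM in the other HSC libraries, and Irgm1, an autophagy-linked GTPase, read 550 CPM against 94.3, 128 and 140 CPM. The promoter windows of both held ISRE cores (1 for Gbp2 and 2 for Irgm1) and no GAS core. An ISRE core stood in 18 of 29 members, and its part in the level of WT 32 was not tested. Kupffer cell markers summed to 2478 CPM in WT 32 and 2725 CPM in KO 20, the HSC libraries with the higher members, and to 531 and 568 CPM in WT 40 and KO 8. Their part in the level of the members was not tested, and in bulk RNA more cells of a type and more RNA per cell cannot be told apart. The EC library WT 38, with the lowest members (2050 CPM), had the highest sums of hepatocyte (25280 CPM), T and NK cell (114 CPM), B cell (163 CPM) and neutrophil (109 CPM) markers among ECs, and their part was not tested either.

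No member passed the threshold of an adjusted p under 0.05 between the labels KO and WT in any of the 4 cell types with edgeR. In ECs 0 of 38 members were called, beside 2.08% of 14631 genes. At an unadjusted p under 0.05 there were 6 (15.0% of all genes) and with DESeq2 0 (6.72%). The counts were 0 of 36 in HSCs (0.0% of 14390 genes; 1 and 8.76% unadjusted; 0 and 2.82% with DESeq2) and 0 of 38 in Kupffer cells (0.0% of 13867 genes; 4 and 5.09% unadjusted; 1 and 0.519% with DESeq2). In hepatocytes 0 of 34 were called (0.0% of 11548 genes; 2 and 7.11% unadjusted; 0 and 0.234% with DESeq2). The labels did not overlap in CPM for 16 of 38 members in ECs (48.2% of all genes), 14 of 36 in HSCs (39.8%), 16 of 38 in Kupffer cells (36.6%) and 11 of 34 in hepatocytes (39.5%), shares near the background. With 2 libraries per label, a missed threshold does not show equal levels.

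In ECs 27 of 38 members had a value above 0, that is on the side of the KO label, with a median log2 fold change of 0.35, beside −0.01 over all genes. The median rested on single libraries, since it was −0.03 without KO 46 or without WT 38, 0.61 without KO 6 and 0.73 without WT 34. The 3 largest values were those of Oas3 (1.93 ± 1.22 SE, at 1 to 20 counts per library), Usp18 (1.51 ± 0.63) and Ifit3b (1.32 ± 0.49). Usp18, the enzyme that removes Isg15 from proteins and dampens the receptor, read 29.7 and 9.24 CPM under WT and 34.5 and 75.5 CPM under KO, without overlap (adjusted p = 0.337). Rsad2 read 42.4 and 30.8 CPM under WT and 51.7 and 125 CPM under KO (adjusted p = 0.270, DESeq2 0.065). The 3 lowest were Mx1 (−1.27 ± 1.29, at 1 to 23 counts), Parp14 (−0.66 ± 0.27) and Dtx3l (−0.57 ± 0.28). Parp14, a mono-ADP-ribosyltransferase, read 111 and 91.1 CPM under WT and 52.9 and 74.0 CPM under KO, and all 3 genes of the PARP and Dtx3l group were below 0. By role, all 4 IFIT genes, 5 of 6 OAS and PKR genes and all 8 other antiviral effectors were above 0. So were 3 of 4 nucleic acid sensors, 3 of 5 guanylate-binding and immunity-related GTPases and 0 of 2 Mx genes. The transcription factors and the ISG15 conjugation genes had 2 of 3 each, and none passed the threshold. Most members moved together between libraries, so that these counts are not independent of each other. Hepatocyte markers summed to 12409 and 25280 CPM under WT and to 2906 and 2032 CPM under KO, and their part was not tested. With hepatocyte-enriched genes left out of the fit the median of the members was 0.30, with 0 members called and 0 of all 13798 genes. That setting kept the counts of the members and the library totals, so it does not remove member reads of hepatocyte origin. Without the filter on low counts 6 members passed (Ifit3, Ifit3b, Oas1a, Oasl2, Rsad2 and Usp18), all higher under KO. Beside them stood 5.26% of 23953 genes in either direction and 0.893% higher under KO. The fold changes of Usp18 (1.52) and Rsad2 (1.30) hardly moved in that fit. Their unadjusted edgeR p fell from 0.051 to 3.0e-06 and from 0.029 to 7.3e-06. These calls therefore did not come from larger differences between the labels. Without WT 34 the log2 fold change of Oasl2 was 1.65.

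**Figure D5:**
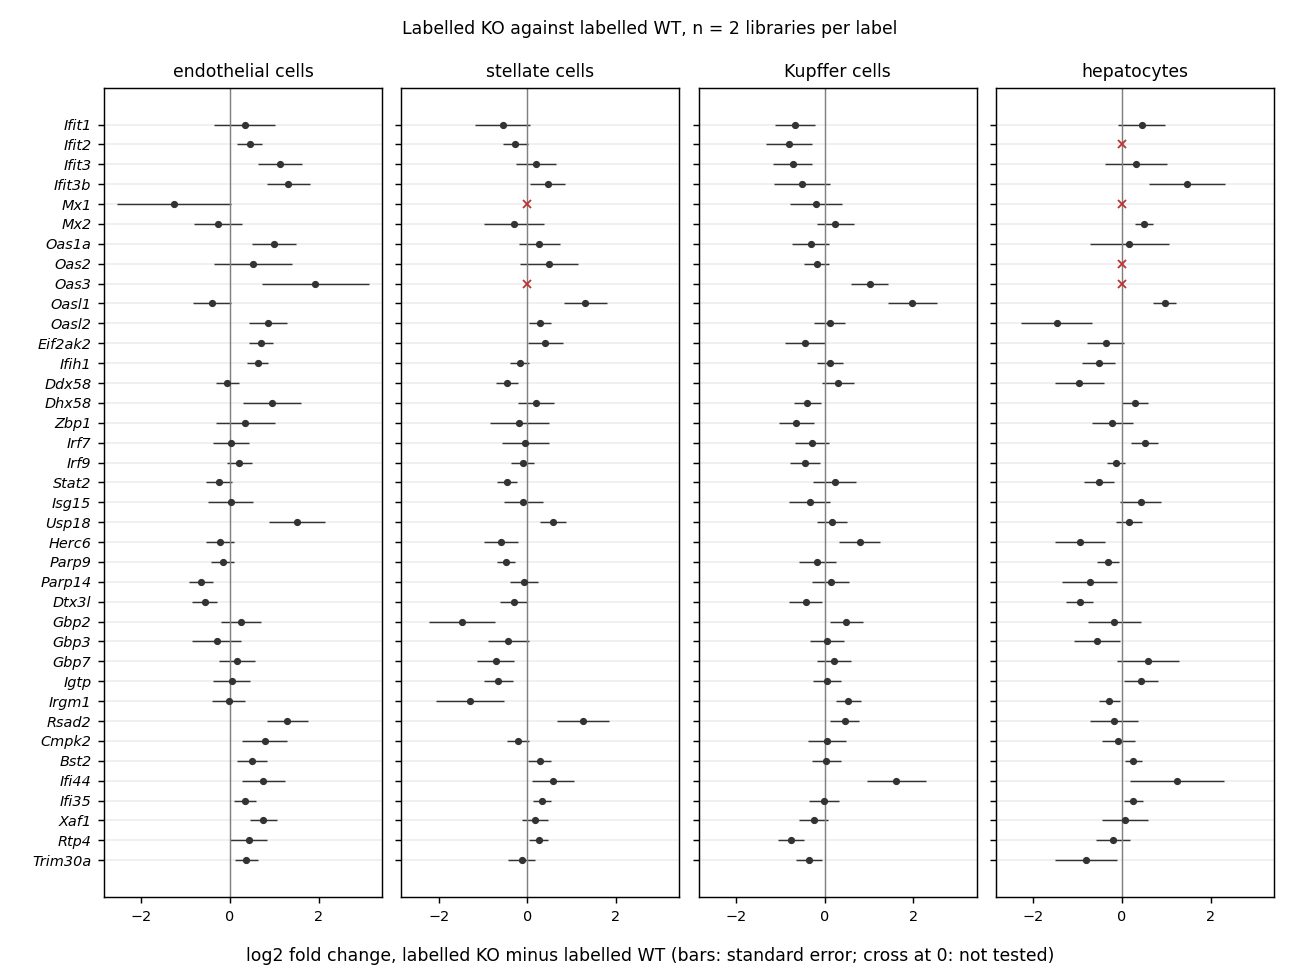
Log2 fold change of each member between the labels KO and WT in each cell type, with its standard error, from 2 libraries per label; a cross at 0 marks a member not tested. In ECs 27 of 38 points lie above 0, and in HSCs 15 of 36, in Kupffer cells 19 of 38 and in hepatocytes 16 of 34.

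In HSCs the median over 36 members was −0.10 (0.02 over all genes). It was 0.31 without WT 32 and 0.28 without KO 8, and −0.37 without WT 40 and −0.35 without KO 20. All 5 guanylate-binding and immunity-related GTPases were below 0, with the lowest values in Gbp2 (−1.48 ± 0.75), Irgm1 (−1.30 ± 0.77) and Gbp7 (−0.71 ± 0.42). These rest on WT 32, since with 1 library left out Gbp2 reached 0.21 and Irgm1 0.50. The highest values were those of Oasl1 (1.31 ± 0.48), Rsad2 (1.25 ± 0.58) and Usp18 (0.57 ± 0.30). Oasl1, which restrains the translation of Irf7, read 4.03 and 7.55 CPM under WT and 12.0 and 16.7 CPM under KO (adjusted p = 0.537). Rsad2 read 12.1 and 4.99 CPM under WT and 14.5 and 26.6 CPM under KO (adjusted p = 0.634). Without the filter on low counts Gbp2 and Irgm1 passed the threshold, both lower under KO, beside 2.45% of all genes. Their fold changes hardly moved in that fit (−1.49 and −1.31), so that these calls did not come from larger differences either. Hepatocyte markers summed to 3343 and 8106 CPM under WT and to 652 and 1623 CPM under KO, and T and NK cell markers to 21.6 and 12.8 CPM and to 5.25 and 1.80 CPM. Their part was not tested. With hepatocyte-enriched genes left out of the fit, which kept the counts of the members, the median was −0.13. Mx1 and Oas3 were not tested.

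In Kupffer cells the median was 0.01 (−0.02 over all genes), and Oasl1 had the largest fold change of any member tested in any of the 4 cell types. It read 32.9 and 13.2 CPM under WT and 121 and 74.2 CPM under KO, and every KO library lay above both WT libraries (log2 fold change 1.98 ± 0.55, edgeR adjusted p = 0.933, unadjusted p = 0.010). With DESeq2 its adjusted p was 0.0458, the only member called by that tool, and leaving out 1 library moved its fold change between 1.40 and 2.94. The next were Ifi44 (1.62 ± 0.66), at 7.85 and 2.61 CPM under WT and 19.7 and 15.0 CPM under KO, and Oas3 (1.01 ± 0.41). The lowest were Ifit2 (−0.81 ± 0.52), Rtp4 (−0.75 ± 0.29) and Ifit3 (−0.72 ± 0.44). Rtp4 read 89.9 and 78.8 CPM under WT and 51.6 and 52.9 CPM under KO (adjusted p = 0.933). All 4 IFIT genes were below 0 and all 5 guanylate-binding and immunity-related GTPases above 0, and none of these 9 passed the threshold. The library KO 27 carried 169 CPM of neutrophil markers against 17.4 to 19.2 CPM in the other 3, and hepatocyte markers summed to 5999 and 8927 CPM under WT and to 10064 and 12010 CPM under KO. Their part was not tested. With hepatocyte-enriched genes left out of the fit, which kept the counts of the members, the median was 0.05.

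In hepatocytes 34 members were tested, with a median of −0.11 (−0.02 over all genes). Ifit2, Mx1, Oas2 and Oas3 were left out by the filter on low counts. The highest values were those of Ifit3b (1.47 ± 0.85, at 0.319 to 1.42 CPM), Ifi44 (1.25 ± 1.06) and Oasl1 (0.96 ± 0.26). Oasl1 read 14.0 and 9.61 CPM under WT and 23.4 and 20.5 CPM under KO (adjusted p = 0.700). The lowest were Oasl2 (−1.47 ± 0.80), Ddx58 (−0.96 ± 0.55) and Dtx3l (−0.96 ± 0.30). Ddx58, the RNA sensor RIG-I, read 23.9 and 7.43 CPM under WT and 9.48 and 5.80 CPM under KO, with overlap. Dtx3l read 18.4 and 23.3 CPM under WT and 12.7 and 8.09 CPM under KO, without overlap (adjusted p = 0.700).

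Whether the difference between the labels varied among the 4 cell types was tested in 1 model over all 16 libraries. None of 38 members passed the threshold with edgeR, beside 1.17% of 17214 genes, 2 did at an unadjusted p under 0.05 (10.6% of all genes), and none with DESeq2 (6.82%). The 2 were Oasl2 and Oasl1 (adjusted p = 0.440 and 0.453). Oasl1 was above 0 in HSCs, Kupffer cells and hepatocytes, without overlap of the labels, and at −0.40 ± 0.42 in ECs, where WT read 24.3 and 20.2 CPM and KO 11.1 and 22.2 CPM.

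The upstream part of the pathway was mostly present, apart from its ligands. Of 21 interferon genes, 13 had 0 counts in all 16 libraries. Ifnb1 read 1.21, 1.04, 1.19 and 4.47 CPM in Kupffer cells and 0 in the other 12 libraries, which allows up to 0.233 CPM in each. Ifna2, Ifna4, Ifna5 and Ifnab were at or under 0.948 CPM in Kupffer cells and at 0 elsewhere, and Ifnk and Ifnz stayed at or under 0.337 CPM in every library. Ifng read 0.209, 5.83, 1.32 and 0.695 CPM in ECs, highest in WT 38, the library with the most T and NK cell markers and the lowest members, and at most 0.848 CPM in the other cell types. All 4 subunits of the type I and gamma receptors were above 10 CPM in every library. Ifnar1 read 142, 110, 93.7 and 76.9 CPM in ECs and 175, 112, 79.6 and 50.5 CPM in HSCs, in each case with both WT libraries above both KO libraries (adjusted p = 0.322 and 0.418). Ifngr1 stood between 405 and 520 CPM in Kupffer cells and between 25.7 and 31.9 CPM in hepatocytes. Ifnar2 was highest in HSCs (316 to 407 CPM), and Ifngr2 read 89.2 and 73.7 CPM under WT and 115 and 140 CPM under KO in ECs (adjusted p = 0.288). Il10rb, the shared chain of the lambda receptor, read 3.29 to 4.45 CPM in hepatocytes and at least 92.8 CPM in the other libraries, and Ifnlr1 was at most 0.349 CPM.

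Jak1 was most abundant in ECs, at 1851, 1253, 1329 and 1009 CPM, against 40.1 to 558 CPM in the other 12 libraries. Jak2 in ECs read 47.2 and 30.5 CPM under WT and 19.2 and 22.2 CPM under KO, without overlap (adjusted p = 0.269). Tyk2 in ECs read 65.8 and 57.8 CPM under WT and 48.7 and 32.1 CPM under KO, again without overlap (adjusted p = 0.332). Over all 92 pathway genes in the lists, which also held sensors, other Irf factors, feedback inhibitors and further induced genes, none passed the threshold with edgeR in any cell type, where 68 were tested for ECs, 68 for HSCs, 70 for Kupffer cells and 59 for hepatocytes. At an unadjusted p under 0.05 there were 7, 7, 5 and 4, where 15.0, 8.76, 5.09 and 7.11% of all genes were. DESeq2 called 1 each in ECs, HSCs and hepatocytes and 0 in Kupffer cells, where 6.72, 2.82, 0.234 and 0.519% of all genes were called. These were Nlrc5, the activator of class I antigen presentation genes, at 31.9 and 32.2 CPM under WT and 10.2 and 13.3 CPM under KO in ECs (DESeq2 adjusted p = 0.00559), Irgm2 in HSCs, at 280 and 170 CPM under WT and 80.7 and 55.3 CPM under KO, and Tor3a in hepatocytes, at 16.9 and 23.9 CPM under WT and 5.16 and 5.19 CPM under KO. Among the further induced genes, 27 of 41 were higher in ECs than in hepatocytes and 1 lower (33.2 and 25.5% of all genes), and the same counts were 32 and 1 for HSCs (34.0 and 24.4%) and 27 and 1 for Kupffer cells (29.3 and 26.3%).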

How the data were processed

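Per the labels and the study's methods, poly(A) RNA of 16 libraries was sequenced, and the authors deposited raw counts per Ensembl mouse gene, 1 table per library, without normalization. The submitters' processing notes name Trimmomatic 0.32, HISAT2 2.1.0, HTSeq 0.9.1, edgeR and GRCm38. The annotation release and the strand setting are not given in the sources used here, and the series and its samples name different library kits. Without a known strand setting, reads of overlapping genes on opposite strands could not be told apart. Counter summary lines (42.5 to 57.5% of all entries, with reads that were not unique at 24.8 to 47.9%) stayed out of totals, so near-identical genes may be undercounted. Coordinates and exon lengths came from GENCODE M21 on GRCm38, which holds 98.9% of the identifiers, and promoter sequences from RefSeq on GRCm38.p6.

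Counts were tested with edgeR 4.0.16 in R 4.3.3 (filterByExpr, TMM factors, quasi-likelihood test, Benjamini-Hochberg adjustment over all genes tested, threshold 0.05). KO was compared with WT within each cell type (4 libraries), pairs of cell types were compared over 16 libraries with 8 group means, and a term for a label effect that differs among cell types was tested in the same model. Standard errors were derived from the fold change and the F statistic. Levels are CPM over gene totals, and 0.5 CPM was added before logs were taken. DESeq2 1.42.0, other scalings, filters, thresholds and left-out libraries were tried as alternatives. The test code was also run on simulated counts with large changes, which does not show its power for smaller changes in these data. Tables and plots were made in Python 3.11.15 with pandas 2.3.3 and matplotlib 3.10.9. Libraries are not stated to come from separate mice, so that p-values measure only the spread between these libraries, and tests over 16 libraries treat them as independent.

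The members, the pathway lists and the markers were chosen with earlier results of these data known. Named genes were all members past the threshold, the 3 highest and 3 lowest fold changes per label comparison, the 5 most abundant members per kilobase in each cell type, the ligands, receptors and kinases of the pathway, and Zeb2. A pathway gene that the rule also named is not reported here. Further genes given with values (members called against all 3 other cell types, those with a low p or a split between libraries, and pathway genes called by DESeq2) were chosen after their values were seen.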

Additional observations from a re-analysis of the deposited data

How the results depend on the processing

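The alternatives with library totals, and those for the comparison with all 3 other cell types, for the summed level and for the medians, were chosen after seeing the data. Of the recomputed results, 524 stayed close to the reported value (counts within 1.5 times, values within 1 SD between replicates), 90 were weaker, 38 stronger and 7 moved. Being close did not keep the sign of the medians between the labels, which with 1 library left out ran from −0.03 to 0.73 in ECs, −0.37 to 0.31 in HSCs and −0.14 to 0.03 in hepatocytes. No paired analysis was made, because the sources used here do not say which libraries share a mouse. Every library has its own title number, so the numbers do not show that libraries of different cell types come from separate mice. Left out libraries leave 1 sample in an arm of a label comparison, which is then assumed to vary like the other label. The cause of the changes was not tested, other than that a stricter filter tests fewer members and each label alone has fewer libraries. Biological coefficients of variation of 36.8 to 51.0% limit the label comparisons.

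Between the labels, members called were 6 in ECs, 1 in HSCs, 4 in Kupffer cells, 2 in hepatocytes and 2 for the difference among cell types at an unadjusted p under 0.05; without a filter they were 6, 2 and 1 in the 3 sorted types and 4 for the difference among cell types; DESeq2 called 1 in Kupffer cells. With library totals, ECs exceeded HSCs in 7 members, Kupffer cells in 13 and all 3 others in 4 (0 lower), hepatocytes exceeded ECs in 0, HSCs in 1 and Kupffer cells in 0 and were below all 3 in 26, and 1 member was lower in HSCs and 0 in Kupffer cells than in all 3. RLE factors gave 1 member higher in hepatocytes than in Kupffer cells, 1 lower in HSCs than in all 3, and 0 lower in Kupffer cells. With TMM scaling the summed level was 2081 CPM in ECs, 2229 in Kupffer cells and 1213 in hepatocytes. Without a filter, Kupffer cells exceeded ECs in 12 members and all 3 others in 9 (2 lower), and hepatocytes exceeded ECs in 3. With at least 10 counts in every library, Kupffer cells exceeded ECs in 4 and all 3 in 2 (0 lower), ECs exceeded all 3 in 0, hepatocytes exceeded Kupffer cells in 1, and 1 was lower in HSCs than in all 3. DESeq2 gave 12 members higher in Kupffer cells than in ECs, 8 higher there than in all 3, and 1 lower in HSCs than in all 3. An adjusted p under 0.1 gave 4 higher in hepatocytes than in HSCs, and 1 lower in HSCs and 2 lower in Kupffer cells than in all 3; an unadjusted p under 0.05 gave 11 higher in Kupffer cells than in ECs, 2 higher in ECs than in all 3, and 2 lower in HSCs and 2 lower in Kupffer cells than in all 3; a fold change of at least 1 on the log2 scale left 3 higher in hepatocytes than in ECs. With the libraries labelled WT alone, ECs exceeded hepatocytes in 14 members, HSCs in 1, Kupffer cells in 1 and all 3 in 0, HSCs exceeded ECs in 3, Kupffer cells in 5 and all 3 in 3, Kupffer cells exceeded HSCs in 3 and all 3 in 1, hepatocytes exceeded ECs in 1 and Kupffer cells in 1, and 0 were lower in ECs or in Kupffer cells than in all 3. With those labelled KO alone, ECs exceeded all 3 in 2, HSCs exceeded ECs in 2, Kupffer cells in 6 and all 3 in 1, Kupffer cells exceeded all 3 in 3, hepatocytes exceeded ECs in 1 and Kupffer cells in 0, and 0 were lower in ECs or in Kupffer cells than in all 3.

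With 1 library left out, ECs exceeded Kupffer cells in 4 to 7 members and all 3 in 1 to 2 (0 to 1 lower), hepatocytes exceeded ECs in 1 to 5 and Kupffer cells in 1 to 2, Kupffer cells exceeded all 3 in 3 to 6 (0 to 1 lower), and 0 to 1 were lower in HSCs than in all 3. Members called between the labels were 0 to 1 in ECs (1 without WT 34), and the median of the members in Kupffer cells lay between −0.16 and 0.10.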

Other observations

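Ifi205 and Ifi204, members of the Ifi200 family of DNA-binding proteins among the further induced genes, showed wide differences between libraries of 1 label, and they were singled out after their values were seen. Ifi205 read 145 and 0.979 CPM in the Kupffer cell libraries WT 31 and WT 39, and 6.53 and 234 CPM in KO 27 and KO 43. Ifi204 read 92.5 and 2.33 CPM in the EC libraries WT 34 and WT 38, and 3.27 and 72.0 CPM in KO 6 and KO 46. In HSCs Ifi204 read 115 and 27.3 CPM in WT 32 and WT 40 and 34.4 and 88.4 CPM in KO 8 and KO 20. In ECs and HSCs the higher libraries of each label were those in which most members were also higher. In Kupffer cells, where Ifi205 and Ifi204 split the labels in the same way (84.8, 28.0, 56.1 and 116 CPM for Ifi204), the members did not. Ifi203, the other family member listed, did not split the Kupffer cell libraries in this way (39.7, 51.0, 39.5 and 57.5 CPM), and read 115, 77.1, 77.1 and 96.1 CPM in ECs. No test of this pattern was made.

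Of the pathway genes that are not members, Irf1, a factor raised by interferon gamma, read 3256, 1677, 1726 and 2763 CPM in ECs and 3987, 1672, 1104 and 2309 CPM in HSCs, WT before KO. Socs3, a feedback inhibitor, ranged from 1762 to 3490 CPM over these 8 libraries. Cxcl10, a chemokine gene, read 1634 CPM in the HSC library WT 32 and 202 to 415 CPM in the other 3. Irf1, Socs3 and Cxcl10 were singled out after their values were seen.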
